A study of Mus musculus with 8 samples.

Results

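The genes described here are 10 genes of the smooth muscle contractile apparatus: Acta2, Actg2, Myl9, Myh11, Tagln, Cnn1, Tpm1, Tpm2, Lmod1 and Des. They were taken by gene symbol, from a list chosen with earlier results of these data known. All 10 were measured, each by 1 probe set, among 19505 genes on 8 mouse Affymetrix arrays. The cells were mesenchymal stromal cells (MSCs) from the inguinal fat pad of 12 months old male FVB mice, grown in high-glucose DMEM with serum and infected with the lentiviral vector pLKO.1. The groups were shIRF7, in which the vector encoded a hairpin against the interferon regulatory factor Irf7 (4 arrays), scramble, in which it carried a scrambled hairpin (2 arrays), and pLKO.1 empty vector (2 arrays). All 3 groups therefore carried the vector, and no array of uninfected cells was used. The hairpin's sequence, the number of hairpins, and whether the arrays of a group came from separate mice, cultures or infections are not stated in the labels. A p-value thus reflects how far these arrays vary, which may be technical variation, and the number of arrays limits its precision.

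Smooth muscle cells contract when myosin pulls on filaments of actin. The thick filaments hold a smooth muscle myosin heavy chain (Myh11) and a regulatory light chain (Myl9), and the thin filaments hold smooth muscle actins (Acta2, Actg2), tropomyosins (Tpm1, Tpm2) and the actin-binding proteins calponin (Cnn1) and transgelin (Tagln). Leiomodin 1 (Lmod1) starts new actin filaments, and desmin (Des) forms the intermediate filaments that tie the contractile units together. Many of these genes are transcribed by serum response factor (SRF) bound to the CArG box, a short DNA element, together with myocardin in muscle or with the myocardin-related transcription factors, which are held in the cytoplasm by unpolymerised actin. Cultured stromal cells and fibroblasts can express part of this set, as myofibroblasts do, while Myh11 marks more mature smooth muscle.

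Because the members moved together over the arrays, as described further on, the promoters of 3 of them are shown. A CArG box was searched as CC, then 6 letters that are each A or T, then GG, and a CArG-like element as the same with 1 of the 6 letters C or G. Both read the same way on either strand. RefSeq promoters of build GRCm38.p6, from 250 bases before to 50 bases after the start of the gene, were given for 7 of the 10 members. Acta2, at chr19:34255324-34255623 on the minus strand, had CArG-like elements 84 and 34 bases before the start. Myl9, at chr2:156775214-156775513 on the plus strand, had a CArG box 161 bases and a CArG-like element 99 bases before the start. Cnn1, at chr9:22099003-22099302 on the plus strand, is shown as a member without a match in this window. The capitals mark the matches.
Acta2: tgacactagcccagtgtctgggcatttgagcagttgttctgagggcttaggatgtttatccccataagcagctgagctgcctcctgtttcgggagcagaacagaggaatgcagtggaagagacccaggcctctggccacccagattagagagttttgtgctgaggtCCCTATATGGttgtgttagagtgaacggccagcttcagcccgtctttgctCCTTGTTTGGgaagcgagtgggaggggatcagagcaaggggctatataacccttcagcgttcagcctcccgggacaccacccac
Myl9: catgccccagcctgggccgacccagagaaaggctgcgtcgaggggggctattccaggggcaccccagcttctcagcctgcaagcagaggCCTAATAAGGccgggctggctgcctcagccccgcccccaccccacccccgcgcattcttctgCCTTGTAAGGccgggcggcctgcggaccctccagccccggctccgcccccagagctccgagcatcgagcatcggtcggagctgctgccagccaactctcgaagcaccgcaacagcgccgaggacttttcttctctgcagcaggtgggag
Cnn1: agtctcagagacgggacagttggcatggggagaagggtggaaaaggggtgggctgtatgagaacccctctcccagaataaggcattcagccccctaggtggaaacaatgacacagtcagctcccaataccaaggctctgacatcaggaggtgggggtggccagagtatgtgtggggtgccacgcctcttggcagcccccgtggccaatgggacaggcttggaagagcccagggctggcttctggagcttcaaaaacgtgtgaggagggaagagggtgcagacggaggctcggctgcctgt
The promoters of Tpm1, Tpm2, Lmod1 and Des also had no match. Among 32851 RefSeq mouse promoters of the same length, 1.63% held a CArG box, 8.5% a CArG-like element and 9.98% either of them. A match is a description of letters and was not tested for binding.

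The values are log2 RMA values as the authors deposited them, so a difference of 1 is a 2-fold difference. They do not compare the level of a gene with that of another. Among probe sets for negative controls the 95th percentile ran from 7.93 to 8.72 over the arrays and their median from 4.18 to 4.56, and values in or below this range cannot be told from background. Irf7 had values of 4.42, 5.66, 6.47 and 6.79 in shIRF7 replicates 1 to 4, against 9.56 and 9.76 in scramble and 9.55 and 9.61 in empty vector. All 4 shIRF7 arrays lay below all 4 control arrays and below the 95th percentile of their own negative controls, so Irf7 was not above background there and only a bound can be given. Counting each shIRF7 array at that percentile, Irf7 was at least 2.34-fold lower in shIRF7 than in the controls (adjusted p = 0.0692 by limma on the measured values, exact permutation p = 0.0286, the smallest that 70 assignments allow). The shIRF7 arrays were not alike over the whole array. Replicates 2 and 3 were the closest pair of all (SD of their difference over genes 0.322), followed by scramble replicate 2 with empty vector replicate 2 (0.325), while other pairs reached 0.942. For shIRF7 against both controls, the median of the members and the count of genes passing are therefore also given with those arrays averaged into 1.

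Between shIRF7 and the controls no contractile gene changed by the test in any comparison. Instead the 4 shIRF7 arrays differed widely among themselves. Replicate 1 had the highest value of all 8 arrays for 9 of the 10 genes, and replicates 2 and 3 had the 2 lowest values for 8 of the 10. Replicate 4 lay near or above the controls for the actins, Tagln, Cnn1 and Myl9, and nearer to replicates 2 and 3 for Tpm2 and Lmod1. The control arrays lay between, with a smaller SD than the shIRF7 arrays for 9 of the 10 genes.

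**Figure D1:**
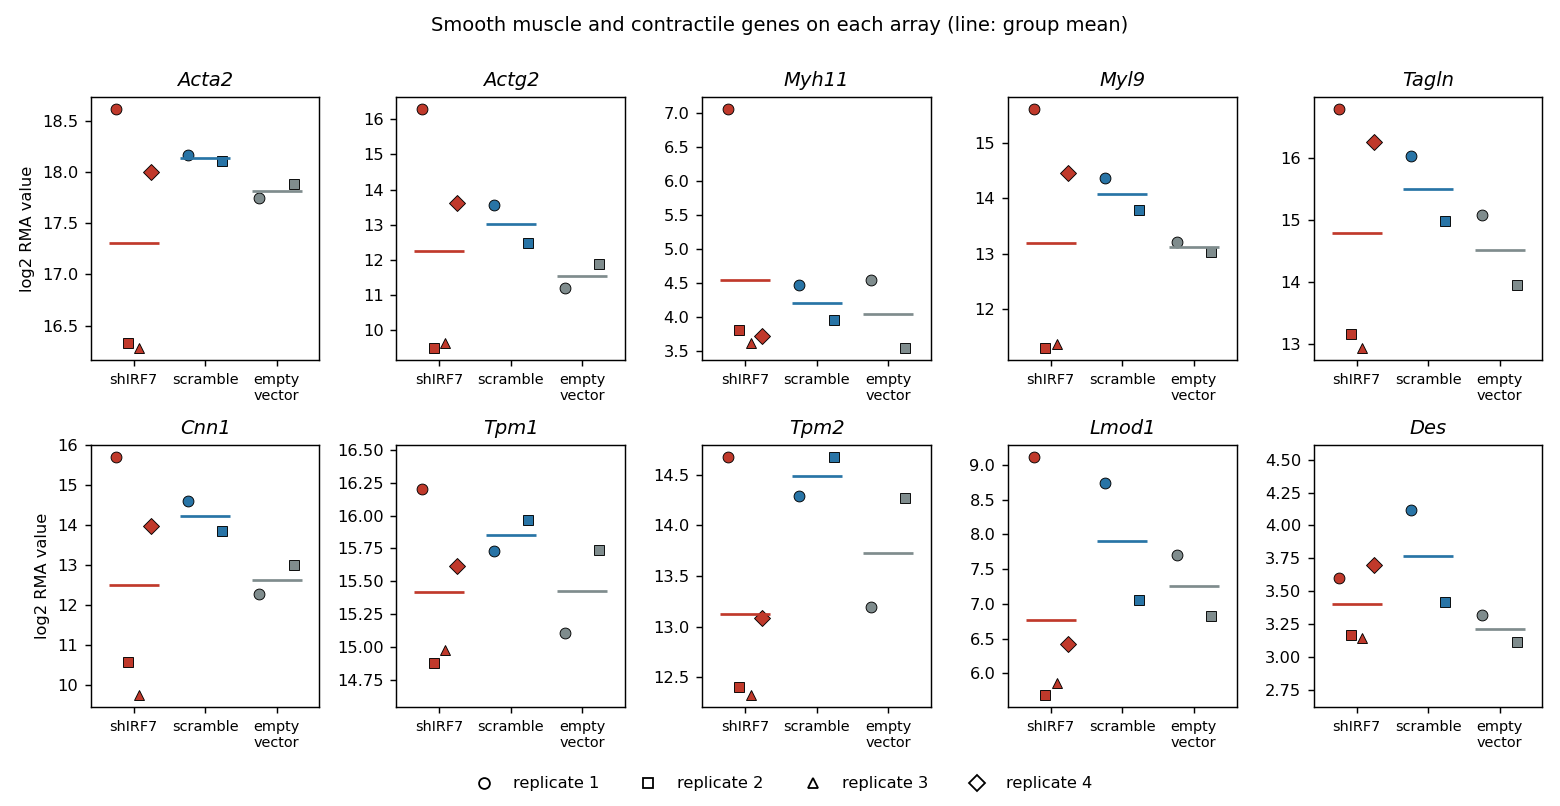
Log2 RMA value (y axis, own scale per gene) of each of the 10 contractile genes on each array, by group (x axis); points are arrays, symbols the replicate number in the labels, and lines the group means. In shIRF7 the value of replicate 1 stands above and those of replicates 2 and 3 below the control values for most genes, with Actg2 from 9.49 to 16.29.

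Of the 2 smooth muscle actins, Actg2 had the widest spread of the 10 genes and Acta2 a narrower one. Acta2, the alpha actin of vascular smooth muscle and of myofibroblasts, had values of 18.62, 16.33, 16.28 and 18.00 in shIRF7 replicates 1 to 4, against 18.17 and 18.11 in scramble and 17.75 and 17.89 in empty vector. Replicates 2 and 3 lay below every control array and replicate 1 above every one, so the groups overlapped. The shIRF7 arrays spanned 2.33 (5.04-fold), against 0.43 (1.34-fold) over the 4 control arrays. The means were 17.31 ± 1.18 in shIRF7 and 17.98 ± 0.20 in the controls (SD, n = 4 each), and the difference of -0.67 (SE 0.54, 95% interval -1.91 to 0.58) did not pass the test (limma, adjusted p = 0.833, exact permutation p = 0.371). The table's highest value is 18.9, and whether values so near its top are compressed was not tested.

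Actg2, the gamma actin of visceral smooth muscle, had values of 16.29, 9.49, 9.62 and 13.61 in shIRF7, against 13.57 and 12.49 in scramble and 11.19 and 11.89 in empty vector. Replicates 1 and 4 lay above all 4 controls and replicates 2 and 3 below all 4. The range over the shIRF7 arrays was 6.80, or 112-fold, which ranked 4 among the ranges of 19505 genes. Over the controls it was 2.38, or 5.22-fold. The means were 12.26 ± 3.30 in shIRF7 and 12.29 ± 1.01 in the controls, and the difference of -0.03 had a 95% interval of -3.47 to 3.41 (limma, adjusted p = 0.998). So wide an interval leaves the difference unresolved in size and in direction. Actin genes are nearly identical in their coding sequence, and whether the probes separate them was not tested.

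Among the myosin genes the light chain followed the actins. Myl9, whose phosphorylation switches smooth muscle contraction on, had values of 15.61, 11.30, 11.38 and 14.46 in shIRF7, against 14.36 and 13.79 in scramble and 13.22 and 13.04 in empty vector. Replicates 1 and 4 again lay above all controls and replicates 2 and 3 below all, with a range of 4.31 (19.8-fold) in shIRF7 and 1.32 (2.50-fold) in the controls. The difference of the groups was -0.42 (SE 0.98, limma adjusted p = 0.961). Myh11, the myosin heavy chain of mature smooth muscle, had values of 7.06, 3.80, 3.61 and 3.71 in shIRF7, against 4.47 and 3.95 in scramble and 4.54 and 3.54 in empty vector. It lay below the 95th percentile of the negative controls on all 8 arrays, and replicate 1 stood apart from the other shIRF7 arrays, which were near the median of the negative controls or below it. The difference of 0.42 (SE 0.78, limma adjusted p = 0.945) and the range of 3.45 within shIRF7 are thus differences near background.

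The genes of the actin-binding proteins Tagln and Cnn1 spread in the same way. Tagln had values of 16.80, 13.16, 12.93 and 16.26 in shIRF7, against 16.04 and 14.98 in scramble and 15.08 and 13.95 in empty vector. Replicates 1 and 4 were above and replicates 2 and 3 below all controls, over a range of 3.87 (14.6-fold), against 2.09 (4.25-fold) in the controls. The difference was -0.22 (SE 0.94, 95% interval -2.42 to 1.97, limma adjusted p = 0.979). Cnn1 had values of 15.71, 10.56, 9.73 and 13.97 in shIRF7, against 14.59 and 13.84 in scramble and 12.27 and 12.99 in empty vector. Replicates 2 and 3 lay below all controls, replicate 1 above all, and replicate 4 among them. Its range of 5.98 in shIRF7 (63.0-fold) ranked 12 among all genes, against 2.32 (5.01-fold) over the controls. The difference was -0.93 (SE 1.27, 95% interval -3.87 to 2.01, limma adjusted p = 0.917).

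The tropomyosins, which lie along actin filaments and set the access of myosin, spanned less than most of the other genes above background. Tpm1 had values of 16.20, 14.88, 14.98 and 15.62 in shIRF7, against 15.73 and 15.97 in scramble and 15.11 and 15.74 in empty vector. Its range in shIRF7 was 1.32 (2.50-fold) and its difference -0.22 (SE 0.32, limma adjusted p = 0.922). Tpm2 had values of 14.68, 12.40, 12.32 and 13.09 in shIRF7, against 14.29 and 14.68 in scramble and 13.19 and 14.27 in empty vector. Here 3 of the 4 shIRF7 arrays lay below all controls, while replicate 1 was at the level of the highest control. Its range in shIRF7 was 2.37 (5.17-fold), close to that of Acta2. The difference of -0.98 (SE 0.54, 95% interval -2.24 to 0.27) was the largest among the 10 genes and did not pass the test (limma, adjusted p = 0.719, unadjusted p = 0.107, exact permutation p = 0.2).

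Lmod1 and Des stood lower on their own scales. Lmod1 had values of 9.12, 5.68, 5.86 and 6.42 in shIRF7, against 8.74 and 7.06 in scramble and 7.70 and 6.82 in empty vector. It passed the 95th percentile of the negative controls on 2 arrays, shIRF7 replicate 1 and scramble replicate 1. The other 3 shIRF7 arrays lay below all controls, and the difference was -0.81 (SE 0.79, 95% interval -2.65 to 1.03, limma adjusted p = 0.872). Des had values of 3.60, 3.17, 3.14 and 3.70 in shIRF7, against 4.12 and 3.42 in scramble and 3.32 and 3.11 in empty vector. All were below the median of the negative controls, and no level of Des can be read from them.

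**Figure D2:**
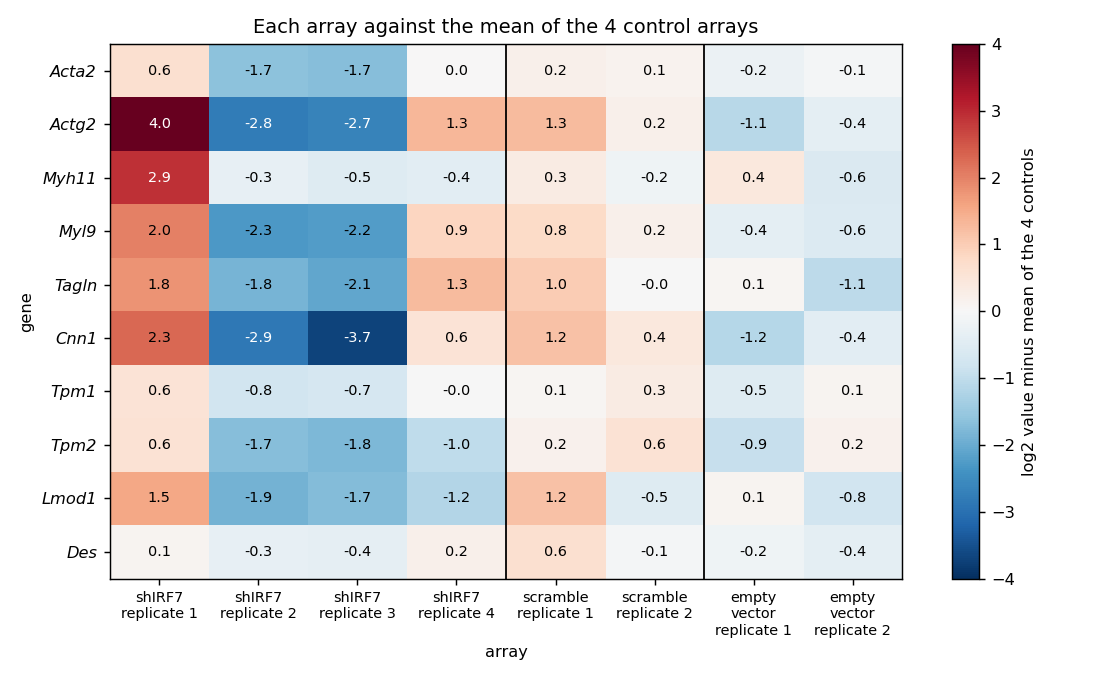
Log2 difference of each array (columns) from the mean of the 4 control arrays for each of the 10 genes (rows); the colour scale runs from -4 to 4 and the printed numbers are the rounded differences. The column of shIRF7 replicate 1 is positive for all 10 genes, with a median of 1.66, and those of replicates 2 and 3 are negative for all 10, with medians of -1.78 and -1.75.

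Over the 10 genes the median difference from the mean of the controls was 1.66, -1.78, -1.75 and 0.12 in shIRF7 replicates 1 to 4. It was 0.69 and 0.16 in scramble and -0.31 and -0.41 in empty vector. Over all 19505 genes each of these 8 medians lay within 0.02 of 0. The highest value fell in shIRF7 replicate 1 for 9 of the 10 genes and for 11.6% of all genes. The 2 lowest values fell in shIRF7 replicates 2 and 3 for 8 of the 10 and for 6.59% of all genes, and both held for 8 of the 10 and for 1.89% of all genes. The SD was larger over the shIRF7 than over the control arrays for 9 of the 10 genes, all but Des, and for 41.4% of all genes. These patterns were chosen after the values were seen and carry no test. After a further cyclic loess normalization of the arrays the same counts, 9 and 8, were found, and the range of Actg2 in shIRF7 was 6.75.

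Since Irf7 was at background on all 4 shIRF7 arrays, the order of the contractile genes could not be set against the extent of the knockdown. The median of the negative control probe sets was 4.18, 4.56, 4.54 and 4.33 in shIRF7 replicates 1 to 4, against 4.26 and 4.56 in scramble and 4.21 and 4.55 in empty vector. Among the shIRF7 arrays it was lowest where the contractile genes were highest, and the share of genes above the negative controls was highest there, at 36.7% in replicate 1 against 31.6% to 34.7% in the others. The part of this background in the result was not tested. In these bulk samples, fewer cells that express a gene and less RNA of it per cell cannot be told apart.

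Set against both controls, with equal weight for scramble and empty vector, shIRF7 showed lower means for 9 of the 10 genes, but none passed the limma test with Benjamini-Hochberg adjustment over all genes. Among all genes 0.0308% passed, which is 6 genes. At an unadjusted p under 0.05 the count was also 0 of the 10, against 8.12% of all genes. No member had all 4 shIRF7 values below all 4 control values, which held for 2.8% of all genes, and none had all 4 above, which held for 2.58%. The median difference of the 10 genes was -0.32, against 0.00 over all genes, and single arrays moved it. Without shIRF7 replicate 1 it was -1.16, without replicate 3 it was -0.01, and with replicates 2 and 3 averaged into 1 it was -0.03, when Actg2, Tagln and Myl9 turned to 0.87, 0.36 and 0.20.

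**Figure D3:**
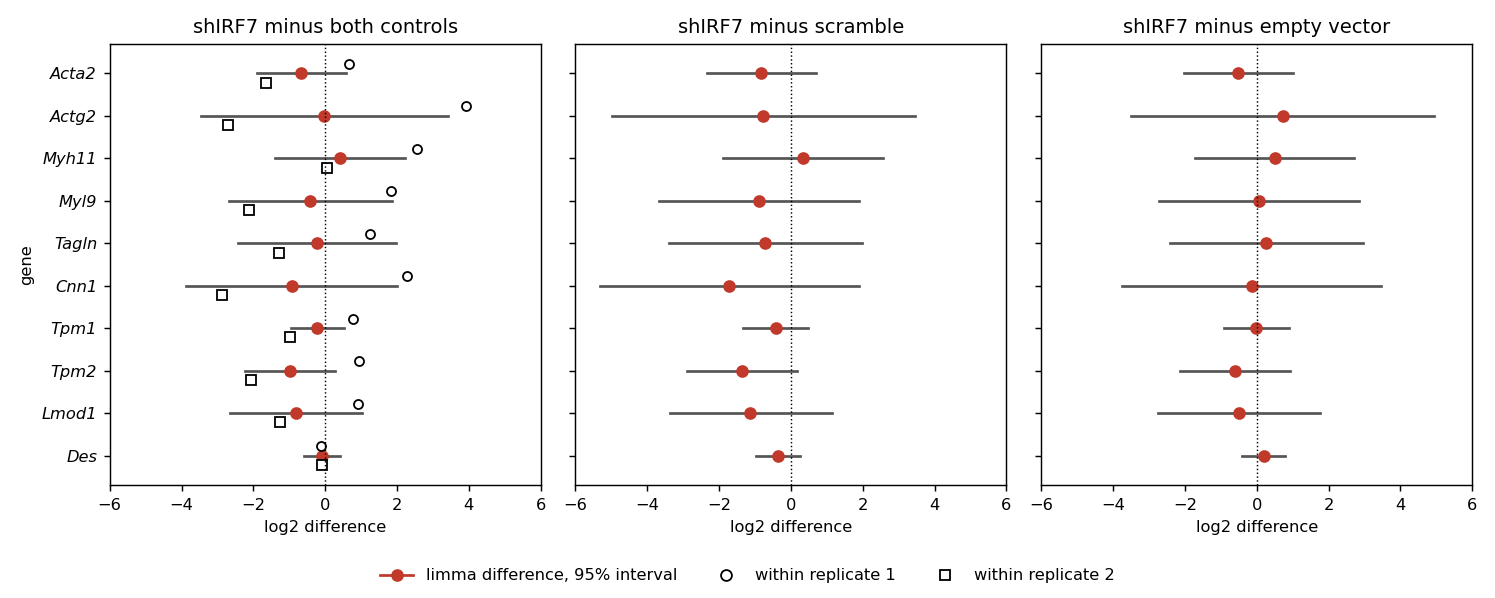
Difference in log2 value (x axis) for each of the 10 genes (y axis) between shIRF7 and both controls, scramble, and empty vector; filled points are limma estimates with 95% intervals, and open symbols in the left panel are single arrays of shIRF7 minus the mean of the control arrays with the same replicate number. Every interval includes 0, and the open symbols lie on opposite sides of 0 for 8 of the 10 genes.

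The labels number the replicates in each group, and the background of the arrays follows that number, so the difference was also taken within a number. Over all genes, arrays of the same number deviated together between scramble and empty vector (correlation 0.76). Between shIRF7 and a control they did not (-0.31 to -0.16), so the number did not pair shIRF7 with the controls. Between the arrays numbered 1, shIRF7 minus the mean of the controls was 3.91 for Actg2, 2.28 for Cnn1, 1.82 for Myl9, 1.24 for Tagln and 0.66 for Acta2, with a median over the 10 genes of 1.09. Between the arrays numbered 2 it was -2.70 for Actg2, -2.86 for Cnn1, -2.11 for Myl9, -1.30 for Tagln and -1.66 for Acta2, with a median of -1.48. The direction thus turned with the arrays chosen, and the pooled difference is a mean over opposite values.

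The comparisons with single controls gave the same call. Against scramble the difference was -1.72 for Cnn1 (95% interval -5.33 to 1.88), -1.36 for Tpm2 (-2.90 to 0.17), -1.13 for Lmod1 and -0.83 for Acta2. None of the 10 passed the limma test, and of all genes 0.00513% did, which is 1 gene. The median of the members was -0.80, against 0.01 over all genes. Against empty vector the difference was -0.61 for Tpm2 (-2.14 to 0.93), -0.51 for Acta2, -0.13 for Cnn1 and 0.72 for Actg2 (-3.50 to 4.93), with a median of 0.02 against 0.00 over all genes. Again 0 of the 10 passed, as did 0% of all genes. These comparisons share the shIRF7 arrays.

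The controls themselves were not level. Scramble was above empty vector in the mean of all 10 genes, by 1.59 for Cnn1, 1.49 for Actg2, 0.99 for Tagln, 0.94 for Myl9, 0.75 for Tpm2 and 0.32 for Acta2, with a median of 0.70 against 0.00 over all genes. With 2 arrays a group none passed the limma test, and neither did any of all genes (0%). The 95% interval was -2.57 to 5.75 for Cnn1 and -3.38 to 6.36 for Actg2.

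Arrays numbered 2 had lower fitted values than arrays numbered 1 for all 10 contractile genes, but the number did not pair shIRF7 with the controls. In scramble and empty vector Tpm1 (0.23 and 0.63) and Tpm2 (0.39 and 1.07) were instead higher in number 2. Acta2, Actg2 and Cnn1 were lower in number 2 in scramble and higher in empty vector. The difference of number 2 minus number 1, fitted over the 3 groups, was -2.39 for Actg2, -2.0 for Lmod1, -1.94 for Tagln, -1.73 for Cnn1, -1.69 for Myl9 and -1.60 for Myh11, with a median of -1.64 over the 10 genes against -0.02 over all genes. None of the 10 passed the limma test, and of all genes 0% passed. At an unadjusted p under 0.05 by limma 3 of the 10 were lower, Lmod1, Tagln and Myh11 (adjusted p = 0.686, 0.746 and 0.768), against 3.69% of all genes. The value was lower in number 2 in each of the 3 groups for 5 of the 10 genes, Tagln, Lmod1, Myl9, Myh11 and Des, and for 15.5% of all genes. Tagln differed by -3.63 in shIRF7, -1.06 in scramble and -1.14 in empty vector, and Lmod1 by -3.44, -1.68 and -0.88 in that order. Without shIRF7 replicate 1 or 2 the fit rests on the 4 control arrays alone, and the median over the 10 genes was -0.28. Lmod1, Tagln and Myh11 then passed the test, and so did 3639 of all 19505 genes. That fit had fewer residual degrees of freedom than the 2 of the fit over all arrays. Myh11 was above the 95th percentile of the negative controls on 0 arrays and Lmod1 on 2.

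The regulators of these genes were measured by 15 of 16 listed genes, of which none passed the limma test in any comparison. At an unadjusted p under 0.05 in shIRF7 against both controls, 1 was lower and 2 were higher, against 4.1% of all genes lower and 4.01% higher. Srf, the factor that binds the CArG box, had values of 11.44, 8.0, 8.43 and 9.70 in shIRF7, against 10.86 and 10.60 in scramble and 10.42 and 10.24 in empty vector. Like the contractile genes it was highest in replicate 1 and lowest in replicates 2 and 3, and its difference was -1.14 (SE 0.69, limma adjusted p = 0.753). Srf was above the 95th percentile of the negative controls on 6 arrays. In shIRF7 replicates 2 and 3 it was below, so its difference rests in part on background values. Myocd, which encodes myocardin, ran from 3.04 to 3.75 in shIRF7 and from 3.03 to 3.61 in the controls, at background on all 8 arrays. The myocardin-related factor Mrtfa ran from 10.28 to 11.28 in shIRF7 and from 9.92 to 10.85 in the controls, and its relative Mrtfb from 12.43 to 12.76 in shIRF7 and from 12.52 to 13.31 in the controls.

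Klf4, a zinc finger factor that represses smooth muscle genes, had values of 8.92, 8.32, 8.78 and 7.84 in shIRF7, against 10.31 and 9.14 in scramble and 9.63 and 8.87 in empty vector. Its difference of -1.02 had an unadjusted p of 0.0203 and an adjusted p of 0.517 by limma. Csrp2, a LIM domain protein of smooth muscle, went the other way within shIRF7, with values of 13.56, 14.98, 14.99 and 14.69, against 12.59 and 13.02 in scramble and 13.58 and 13.75 in empty vector. Its difference of 1.32 (SE 0.33) had the smallest adjusted p of the regulators, 0.32 by limma. Without shIRF7 replicate 1 it was 1.65 and passed the test (limma, adjusted p = 0.0494), with the close replicates 2 and 3 counted as separate arrays. With these averaged and replicate 1 kept, 0 genes passed. Csrp1, a relative of Csrp2, had values of 15.73, 13.35, 13.43 and 13.98 in shIRF7, against 14.94 and 14.50 in scramble and 13.97 and 14.36 in empty vector. It was highest in replicate 1 and lowest in replicates 2 and 3. Of the 15 regulators 2, Srf and Csrp1, had this pattern, against 1.89% of all genes.

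**Figure D4:**
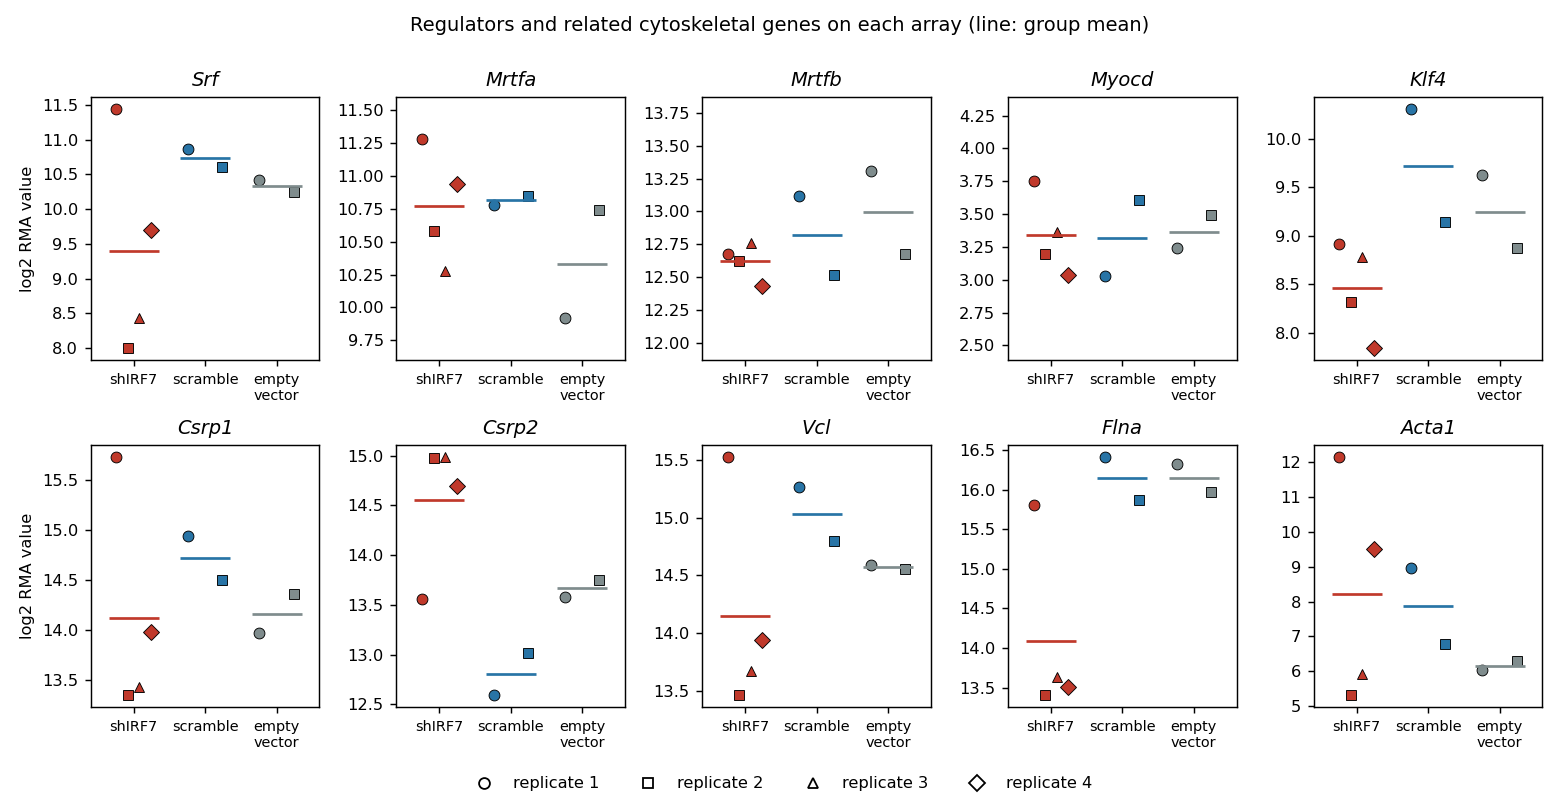
Log2 RMA value (y axis, own scale per gene) of Srf, its cofactors and related cytoskeletal genes on each array, by group (x axis); points are arrays, symbols the replicate number, and lines the group means. Srf and Csrp1 are highest in shIRF7 replicate 1 and lowest in replicates 2 and 3, where Srf lies below the 95th percentile of the negative controls. Csrp2 is lowest of the shIRF7 arrays in replicate 1, and Myocd lies at background.

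Other genes of smooth muscle contraction, 23 measured of 24, had a median difference of 0.01 between shIRF7 and both controls, and none passed the limma test. The pattern over the arrays was found in part of them: 12 had their highest value in shIRF7 replicate 1, and 8 of these also had their 2 lowest in replicates 2 and 3, against 11.6% and 1.89% of all genes. Cnn2, a calponin of many cell types, had values of 16.35, 14.11, 14.55 and 15.07 in shIRF7, against 16.11 and 15.91 in scramble and 15.60 in both empty vector arrays. Hspb6, a small heat shock protein of muscle, had values of 14.76, 12.83, 12.56 and 13.78 in shIRF7, against 13.26 and 12.90 in scramble and 11.89 and 12.82 in empty vector. Hspb7, another such protein, had values of 9.10, 7.04, 6.91 and 10.30 in shIRF7, against 7.50 and 7.80 in scramble and 7.23 and 7.89 in empty vector. For Hspb7 replicate 4 was the highest array.

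Among the same 23 genes 12 were never above the 95th percentile of the negative controls. By replicate number 5 of the 23 were lower in number 2 at an unadjusted p under 0.05, against 3.69% of all genes. The 3 with the largest difference by number were Synpo2, an actin-binding protein (-2.45, limma adjusted p = 0.467), Ppp1r14a, an inhibitor of myosin phosphatase (-1.91), and Prkg1, the kinase through which cyclic GMP relaxes smooth muscle (-1.82). Synpo2 had values of 5.93 in shIRF7, 5.75 in scramble and 5.65 in empty vector on the arrays numbered 2, against 8.51 in shIRF7, 7.92 in scramble and 8.25 in empty vector on those numbered 1. Its values on these 6 arrays divided by number and not by vector, but most were at background. Synpo2 was above the 95th percentile of the negative controls on 2 arrays, shIRF7 replicate 1 and empty vector replicate 1. Ppp1r14a was above it on 0 arrays and Prkg1 on 1, so these are differences near background.

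The general actin cytoskeleton was measured by 19 of 20 listed genes, which had a median difference of -0.26, and none passed the limma test. Of these, 11 were highest in shIRF7 replicate 1, against 11.6% of all genes. Of the 11, 6 also had their 2 lowest values in replicates 2 and 3, against 1.89% of all genes. Among the 6 was Vcl (vinculin), with 15.53, 13.46, 13.67 and 13.94 in shIRF7, against 15.27 and 14.80 in scramble and 14.59 and 14.56 in empty vector. Flna, which cross-links actin filaments, had values of 15.81, 13.40, 13.64 and 13.51 in shIRF7, against 16.42 and 15.87 in scramble and 16.32 and 15.97 in empty vector. It differed from the contractile genes in that all 4 shIRF7 arrays lay below all controls, which held for 2.8% of all genes. In replicate 4 it was as low as in replicates 2 and 3. Its difference of -2.06 (SE 0.53) had an adjusted p of 0.332 by limma. Without shIRF7 replicate 1 it was -2.63 and passed the test (limma, adjusted p = 0.023), with the close replicates 2 and 3 counted as separate arrays. With these averaged and replicate 1 kept, 0 genes passed. Myh9, a non-muscle myosin heavy chain, and Zyx, a protein of focal adhesions, differed by -0.94 and -0.88, with adjusted p = 0.498 and 0.644 by limma.

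Transforming growth factor beta (TGF-beta) is a main inducer of contractile genes in stromal cells. Of 23 listed genes of its pathway 22 were measured, with a median difference of -0.13, and none passed the limma test. Tgfb3, a ligand, had values of 13.39 in replicate 1, 9.88 in replicate 2 and 11.74 in replicate 4 of shIRF7 (replicate 3 was close to replicate 2), against 13.05 and 10.95 in scramble and 12.68 and 10.68 in empty vector. It was high in all arrays numbered 1 and had a difference by number of -2.54 (limma adjusted p = 0.57). Ltbp2, a matrix protein of the latent TGF-beta binding protein family, had a difference by number of -1.57. Tgfbi, a secreted matrix protein induced by TGF-beta, ran the opposite way to the contractile genes within shIRF7, with 11.31, 15.42, 15.35 and 13.85, against 11.85 and 13.73 in scramble and 13.70 and 13.87 in empty vector. Smad3, a transcription factor of the pathway, was lower in all 4 shIRF7 arrays (11.55 to 11.65) than in the controls (11.77 to 12.87), with an adjusted p of 0.626 by limma.

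Markers of other contractile or fat pad cells were measured beside the members. Of 9 pericyte markers 7 were at background on all arrays, Rgs5 and Cspg4 among them, while Pdgfrb, a receptor also found on stromal cells, ran from 14.81 to 15.12 in shIRF7 and from 14.74 to 15.13 in the controls. Mcam, a surface protein of pericytes and smooth muscle, had values of 10.68, 4.47, 4.38 and 6.41 in shIRF7, against 5.11 and 4.16 in scramble and 4.31 and 4.30 in empty vector. Only shIRF7 replicate 1 passed the 95th percentile of the negative controls for Mcam. The log2 of the summed linear levels of the pericyte list ran from 14.81 to 15.13 in shIRF7 and from 14.75 to 15.14 in the controls. This is close to the range of Pdgfrb alone, so the sum says little of the other pericyte markers. Such sums also add values that do not compare the level of a gene with that of another.

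Of 15 markers of striated muscle 14 were at background on all arrays, among them Myod1, Myog and Pax7. The exception was Acta1, the skeletal muscle actin, with 12.17, 5.30, 5.91 and 9.50 in shIRF7, against 8.96 and 6.79 in scramble and 6.02 and 6.29 in empty vector. Acta1 was above the 95th percentile of the negative controls on 3 arrays, shIRF7 replicates 1 and 4 and scramble replicate 1. It had the order of Actg2, but among the other arrays this is an order of background values. The remark on the likeness of actin sequences applies to it. The summed level of the list, as log2, ran from 8.51 to 12.26 in shIRF7 and from 8.45 to 9.81 in the controls. At its top it was close to Acta1 alone, and the other 14 genes added background values. The 9 epithelial and myoepithelial, 8 endothelial, 7 leukocyte and 3 Schwann cell markers were at background on all 8 arrays. Their summed levels ran from 6.60 to 6.78 in shIRF7 and from 6.53 to 6.72 in the controls for the epithelial list. For the endothelial list they ran from 6.77 to 7.48 in shIRF7 and from 6.59 to 7.36 in the controls. For the leukocyte list they ran from 6.70 to 6.88 in shIRF7 and from 6.75 to 7.08 in the controls, and for the Schwann cell list from 5.11 to 5.68 in shIRF7 and from 4.68 to 5.41 in the controls. Sums of background values give no level of a cell type.

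Of 10 measured stromal markers 7 were above the negative controls on all arrays, among them Vim, Itgb1, Eng and Cd34, while Nt5e and Dpp4 were at background throughout. The summed level of the stromal list, as log2, ran from 18.82 to 18.97 in shIRF7 and from 19.01 to 19.22 in the controls. Genes of high value weigh most in it, and Vim had the highest values. Col1a1, a collagen chain, ran from 15.56 to 15.80 in shIRF7 and from 16.29 to 16.99 in the controls (difference -0.88, limma adjusted p = 0.187). Cd44 ran from 12.44 to 13.75 in shIRF7 and from 13.08 to 14.93 in the controls (-1.34, limma adjusted p = 0.525). Thy1, above background on 2 arrays, ran from 4.87 to 7.60 in shIRF7 and from 7.59 to 9.54 in the controls (-2.15, limma adjusted p = 0.501). Itgb1, an integrin chain, had values of 16.25, 15.29, 15.41 and 16.10 in shIRF7, against 15.82 to 15.92 in the controls, and so was highest in replicate 1 and lowest in replicates 2 and 3 like the contractile genes. Of the 10 measured stromal markers only Itgb1 had this pattern, which 1.89% of all genes had. Cd34 had 11.29, 13.25, 13.13 and 12.61 in shIRF7, against 11.81 to 13.72 in the controls, with replicate 1 the lowest array. Of the 7 adipocyte markers measured 4 were at background on all arrays, Adipoq among them. The summed level of that list ran from 13.36 to 14.35 in shIRF7 and from 13.42 to 15.11 in the controls, and Lpl had the highest values in it.

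**Figure D5:**
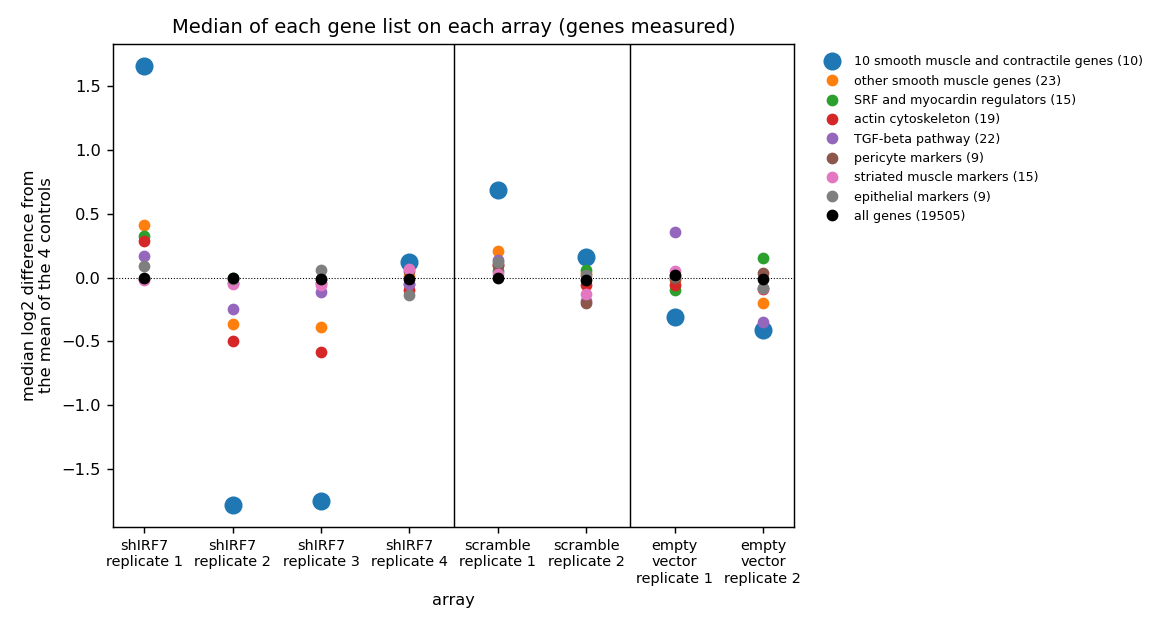
Median over each gene list of the log2 difference from the mean of the 4 control arrays (y axis) on each array (x axis); the number of genes measured is in the legend and black points are all 19505 genes. The median of the 10 contractile genes is 1.66 in shIRF7 replicate 1 and -1.78 and -1.75 in replicates 2 and 3, while that of the 23 other smooth muscle genes is 0.41, -0.36 and -0.39 there.

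Among the members the order over the arrays was not the same throughout. The mean of the 10 genes, each centred on its own mean, was 1.84, -1.45, -1.54 and 0.36 in shIRF7, 0.88 and 0.30 in scramble and -0.19 and -0.20 in empty vector. The root mean square difference from this mean, over the 8 arrays, ran from 0.39 for Acta2 to 1.1 for Actg2. Outside all lists, among 2912 genes whose own SD was at least 0.57, the closest to this mean were Unc5b, a netrin receptor (0.26), Foxs1, a forkhead factor (0.29), Npr3, the clearance receptor of natriuretic peptides (0.33), and Etv5, an ETS factor (0.34). They were followed by Ccn4, a matricellular protein (0.37), Atoh8, a helix-loop-helix factor (0.37), Ddr1, a collagen receptor (0.39), and Ehd3, a protein of endosomal recycling (0.39). Foxs1 was above the 95th percentile of the negative controls on 1 array and Ehd3 on 0. Unc5b had values of 13.06, 10.11, 10.23 and 11.90 in shIRF7, against 12.14 and 12.23 in scramble and 11.39 and 11.75 in empty vector. Npr3 had values of 13.31, 9.64, 9.81 and 10.87 in shIRF7, against 12.21 and 11.33 in scramble and 11.01 and 11.48 in empty vector. The likeness is over 8 arrays that also share their background levels, and it carries no test.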

How the data were processed

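Total RNA of the 8 samples was measured on Affymetrix arrays. The deposited log2 values were made by the authors with RMA, which corrects background, normalizes arrays to each other and summarises probes. The submitters' processing notes name version 1.4.1.46 of Affymetrix Expression Console for it. Values ran from 1.66 to 18.9. The genome build of the array is not given in the sources.

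Of 28846 probe sets 19572 had 1 gene symbol, 0 several and 9274 none. All 19572 identifiers matched RefSeq GRCm38.p6. Where a gene had several (55 genes), the probe set of highest mean was kept, leaving 19505 genes. The 5222 negative control probe sets described background. No array column was left unused (0).

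The deposited values were tested with limma 3.58.1 in R 4.3.3 (lmFit, eBayes), fitted to all 8 arrays together, 1 mean per group (5 residual and 2.68 prior degrees of freedom), with Benjamini-Hochberg adjustment over all genes and a threshold of 0.05. The script was tested on simulated data. Single genes were also compared by two-sided exact permutation of 4 against 4 arrays. The fit by replicate number had 2 residual degrees of freedom, and fewer without shIRF7 replicate 1 or 2. Alternatives were a filter on dim genes, other variance moderation, cyclic loess, a replicate block, pooled controls, omitted arrays and, added after seeing the data, shIRF7 replicates 2 and 3 averaged.

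The members and 12 further lists were chosen with earlier results of these data known. Of 167 listed genes 155 matched by symbol and 2 through an older symbol, while 10 were not analysed here. The genes named were Irf7, all members, up to 3 genes of each further list with the largest difference of shIRF7 against both controls and 3 by replicate number, and the 8 most similar genes outside the lists. Of these the report gives those with a level above background or a value that bears on the members. A few list genes were also named after their values were seen.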

Additional observations from a re-analysis of the deposited data

Results flagged for a closer look

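Among 72 named genes tested for an array far from the other 3 of shIRF7, 6 were found. The measure was the gap to the nearest value over the whole range, above Dixon's 95% critical value. Most of the 72 genes were picked by their values on these same arrays, so the usual chance rate of about 1 in 20 does not apply. Of the contractile genes this was Myh11, at 7.06 in shIRF7 replicate 1, against 3.61 to 3.80 in the other shIRF7 arrays (ratio 0.945). Myh11 was above the 95th percentile of the negative controls on 0 arrays. In shIRF7 replicate 1 the others were Flna at 15.81 (0.898), Zyx at 14.27 (0.909), the fatty acid binding protein Fabp4 at 9.01 (0.901) and the lysozyme gene Lyz2 at 3.95 (0.92). Itgam, a leukocyte integrin, stood apart at 3.53 in shIRF7 replicate 3 (0.919). Lyz2 and Itgam lay near the median of the negative controls, so no level can be read from them.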

How the results depend on the processing

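No member passed the threshold in a comparison of vectors under any alternative run. The number of genes past it in shIRF7 against both controls was 6. It was 3 with genes above the negative controls only, 3 with trend and robust fitting, 2 after cyclic loess, 28 with both controls as 1 group (when Irf7 also passed) and 0 with shIRF7 replicates 2 and 3 averaged. Against scramble it was 1, and 0 with the filter, with trend and robust fitting, or with those arrays averaged. Arrays of the same number deviated together between scramble and empty vector (correlation 0.76) but not between shIRF7 and a control (-0.31 to -0.16), so the number did not pair all 3 groups. With the replicate number as a block, shIRF7 replicates 3 and 4 drop out of the differences, as no control array has these numbers. The shIRF7 value then rests on replicates 1 and 2. The counts were 0 against both controls and 0 against scramble. The differences turned to 0.61 for Actg2 and -0.049 for Kdr against both controls. Against empty vector they turned to 0.51 for Cnn1, 0.11 for Tpm1 and 0.14 for Lmod1. With shIRF7 replicates 2 and 3 averaged the difference was 0.87 for Actg2, 0.36 for Tagln and 0.20 for Myl9 against both controls, 0.12 for Actg2 against scramble, and 0.65 for Cnn1 and 0.15 for Tpm1 against empty vector. Of the member values recomputed 49 of 655 turned direction, and the cause was not tested. The filter on dim genes gave no value for Des, Myh11 and Lmod1.

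Leaving out 1 array gave 0 to 28 genes against both controls (28 when shIRF7 replicate 1 was omitted, 3 for shIRF7 replicate 4, 2 for empty vector replicate 2, and 0 for shIRF7 replicates 2 or 3 or either scramble array). It gave 0 to 8 against scramble (8 for shIRF7 replicate 1 and 0 for another shIRF7 array or a scramble array) and 0 to 3 against empty vector (1 for shIRF7 replicate 4 or empty vector replicate 1, 3 for empty vector replicate 2). Without shIRF7 replicate 1, 4 named genes that are no members passed the limma test against both controls: Irf7 (adjusted p = 0.0254), Flna (0.023), Csrp2 (0.0494) and Fabp4 (0.0494). That fit counts the close shIRF7 replicates 2 and 3 as separate arrays. By replicate number, leaving out 1 array gave 0 to 3639 genes and 0 to 3 members. The higher counts (and 15 named genes, the 3 members included) came without shIRF7 replicate 1 or 2, where the fit rests on the 4 control arrays. A control group left with 1 array was assumed to vary like the others. Differences that changed sign against both controls ran from -1.38 to 0.89 for Actg2, -0.89 to 0.40 for Tagln, -1.22 to 0.21 for Myl9, -0.42 to 0.73 for Myh11, -0.26 to 0.083 for Des, -0.11 to 2.18 for Acta1, -0.24 to 1.07 for Tnnt3 and -0.16 to 0.37 for Kdr. Against scramble they ran from -2.12 to 0.14 for Actg2 and -0.50 to 0.65 for Myh11. Against empty vector they ran from -0.63 to 1.64 for Actg2, -0.40 to 0.89 for Tagln, -0.75 to 0.68 for Myl9, -1.21 to 0.79 for Cnn1, -0.33 to 0.31 for Tpm1 and -0.34 to 1.00 for Myh11. For scramble against empty vector they ran from -0.20 to 1.48 for Lmod1 and -0.34 to 0.67 for Myh11. By replicate number they ran from -1.17 to 0.036 for Acta2, -0.54 to 0.43 for Tpm1, -0.95 to 0.73 for Tpm2, -0.23 to 1.35 for Cd44, -0.87 to 0.27 for Fabp4, -1.34 to 0.082 for Lpl, -0.36 to 0.34 for Ngfr and -0.37 to 0.032 for Oxtr. Signal near background limits Des, Myh11 and Lmod1.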
